A study of Mus musculus with 75 samples.

Results

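Ligands and antagonists of the transforming growth factor beta (TGF-beta) family were followed through 9 genes among the 24984 of the count tables. With earlier results of these data known, the 9 genes were chosen by name. Of these, 7 encode ligands: Tgfb1, Tgfb2, Tgfb3, Inhba, Mstn, Bmp4 and Bmp6. The other two, Grem1 and Fst, encode secreted antagonists. All 9 genes passed the filter on low counts in each of the 5 RNA-seq experiments. In build GRCm38 they lie at chr7:25687002-25705077 (Tgfb1), chr1:186622792-186705989 (Tgfb2), chr12:86056743-86079041 (Tgfb3), chr13:16011851-16031609 (Inhba), chr1:53061640-53068079 (Mstn), chr14:46383525-46390669 (Bmp4), chr13:38345716-38500314 (Bmp6), chr2:113748675-113758648 (Grem1) and chr13:114452262-114458951 (Fst).

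Untreated skin fibroblasts of 2-month-old female C57BL/6 mice were passaged into replicative senescence, and 4 RNA-seq libraries each were made from passage 1 (P1), P3, P5 and P7. Open chromatin of the same passages was mapped by ATAC-seq in 13 samples, 4 of them from P1 and 3 from each later passage. In the interventions, mouse skin fibroblasts carried lentiviral constructs: doxycycline-induced E2f4 or a vector that expresses EGFP (E2f4_OE and E2f4_OE_control, n = 2 each, both with doxycycline), or a hairpin selected with puromycin. The hairpin groups were E2f4_sh1 and its non-targeting control E2f4_nt, Tead1_sh3, Tead1_sh4 and Tead1_nt, and Atf3_sh5, Atf3_sh6 and Atf3_nt, with n = 3 each. Cells of newborn mice, whose strain the study does not name, and of 2-month-old mice were both used for the interventions. The labels do not say which library came from which, nor at what passage. All intervention libraries held RNA of the Y-linked gene Ddx3y and of Xist, from the inactive X chromosome, and so RNA of male and of female cells. In the passage libraries of female mice Ddx3y was at 0. The study states that E2f4 was overexpressed in pre-senescent cells and knocked down in proliferating P3 cells. It states that Atf3 was knocked down in pre-senescent cells. The comparisons ask how senescence, and 3 transcription factors that may act in it, move genes of the fibroblast.

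Ligands of this family are secreted as dimers and bring together receptor kinases of type I and type II, which phosphorylate Smad proteins. TGF-beta and activin act mainly through Smad2 and Smad3, and bone morphogenetic proteins (BMPs) through Smad1, Smad5 and Smad9. In fibroblasts, TGF-beta is known for raising matrix and contractile genes, and activin A, the dimer of the Inhba product, is a known secreted factor of senescent cells.

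The 44 libraries held 9147324 to 27552949 counts each. The targeted gene moved in the direction of the label with all constructs, and passed the test with all but 1 hairpin. E2f4 was at 1117.9 and 1179.8 CPM (counts per 1000000 of the library) in E2f4_OE and at 35.5 and 47.5 CPM in its control, and with sh1 it fell by 1.5 on the log2 scale. Tead1 fell by 0.96 with sh3 and by 0.78 with sh4. Atf3 was at 1.46, 2.10 and 0.451 CPM with sh5 against 3.31, 2.85 and 2.77 CPM in the control, and it fell by 1.14 ± 0.39 on the log2 scale (adjusted p = 0.045). In the libraries labelled Atf3_sh6 it was at 1.51, 1.56 and 2.09 CPM, a difference of -0.79 ± 0.39 that did not pass the test (adjusted p = 0.11), although the libraries did not overlap with the control. By the study's methods, its knockdowns were checked by qPCR and immunoblot. Here and below, CPM are scaled by TMM, ± after a log2 fold change is the standard error, and p-values are adjusted over all tested genes of the experiment, with 0.05 as the threshold.

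Fibroblast markers made up the largest of the marker sums in each passage group, but P1 held RNA of other cells. Over the P1 libraries the 8 macrophage markers summed to 322.4 to 498.1 CPM and the 10 skeletal muscle markers to 146.2 to 223.8 CPM. At P3 they summed to 44.4 to 61.5 and 54.9 to 62.3 CPM, and at P7 to 33.8 to 51.9 and 39.3 to 110.5 CPM. The muscle factors Myod1, Myog and Myf5 and the muscle kinase Ckm were at 0 in the P7 libraries. The muscle factor Pax7, at 0 at P3 and P5, had counts at P7. Endothelial, keratinocyte and adipocyte markers fell in the same way, to sums between 4.73 and 12.8 CPM at P7. Schwann cell and melanocyte markers did not: they summed to 33.1 to 41.3 CPM at P1 and 39.8 to 120.5 CPM at P7, with 2 of 4 tested genes higher and 1 lower. The part of these cells in the P1 values was not tested, and in bulk samples fewer cells of a type and less RNA per cell cannot be told apart. P7 was therefore also compared with P3 in place of P1, where 5 of the 9 genes passed: Inhba (0.48, adjusted p = 0.011), Mstn (4.45), Grem1 (1.30) and Fst (1.46) were higher and Bmp4 (-2.21) was lower. Mstn, among the 5, passed the filter on low counts only through P5 and P7.

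Promoters of 4 members are shown for reference: Inhba, Mstn and Grem1 were all higher at P7 than at P1 and all fell with E2f4 overexpression, while Bmp6 rose with E2f4 overexpression and both Tead1 hairpins and fell with both Atf3 hairpins. RefSeq promoters of build GRCm38.p6 were found for 7 of the 9 genes. The sequences below are the 250 bases before the start site, 5′ to 3′, at chr13:16011601-16011850 (+) for Inhba, chr1:53061390-53061639 (+) for Mstn, chr13:38345466-38345715 (+) for Bmp6 and chr2:113758649-113758898 (-) for Grem1. Capitals mark a match to the letters TGANTCA.
Inhba: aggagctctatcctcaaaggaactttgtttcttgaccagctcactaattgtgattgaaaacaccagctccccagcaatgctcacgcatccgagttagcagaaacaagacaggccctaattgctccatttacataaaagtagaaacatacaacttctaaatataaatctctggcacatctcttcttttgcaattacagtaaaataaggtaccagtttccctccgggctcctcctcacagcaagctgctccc
Mstn: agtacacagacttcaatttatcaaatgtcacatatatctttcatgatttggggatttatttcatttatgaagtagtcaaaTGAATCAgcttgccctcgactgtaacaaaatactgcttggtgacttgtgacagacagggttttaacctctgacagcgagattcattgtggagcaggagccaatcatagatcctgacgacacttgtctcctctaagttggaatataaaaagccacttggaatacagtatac
Bmp6: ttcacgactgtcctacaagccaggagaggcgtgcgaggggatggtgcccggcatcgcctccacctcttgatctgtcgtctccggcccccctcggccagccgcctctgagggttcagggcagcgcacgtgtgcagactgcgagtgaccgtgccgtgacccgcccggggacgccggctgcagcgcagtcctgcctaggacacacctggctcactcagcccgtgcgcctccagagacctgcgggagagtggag
Grem1: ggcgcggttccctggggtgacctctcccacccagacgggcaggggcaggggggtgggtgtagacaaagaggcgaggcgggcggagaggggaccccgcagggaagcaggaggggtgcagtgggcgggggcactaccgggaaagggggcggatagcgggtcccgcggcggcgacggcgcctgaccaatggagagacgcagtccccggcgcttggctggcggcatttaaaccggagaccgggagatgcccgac
The Mstn promoter held TGAATCA, a match to TGANTCA, whose first base lies 170 bases before the start site. It was the only match among the 7 member promoters over 300 bases (250 before and 50 after the start), searched on both strands for TGANTCA (AP-1), TGACGTCA (CRE), GGAATG (TEAD) and TTTNNCGC (E2F). Of 32851 promoters, 7.81% held the AP-1 letters, 1.79% the CRE letters, 14.7% the TEAD letters and 5.17% the E2F letters. N stands for any base, in TGAATCA an A, so the letters are wider than a defined AP-1 site. A match is only a description of the letters. GC content of the 250 bases ranged from 38.4% for Mstn and 43.2% for Inhba to 68.8% for Bmp6 and 72.0% for Grem1.

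Compared per length, Grem1 was the highest member at each passage. At P1 its mean was 186.1 RPKM (CPM per kilobase of exons, from the TMM-scaled library size), followed by Inhba at 49.5 and Tgfb1 at 48.8 RPKM, whose libraries overlapped. Tgfb3 followed at 21.0, Fst at 13.0, and Tgfb2 at 5.10 and Bmp4 at 3.68 RPKM, again with overlap. Bmp6 stood at 1.47 and Mstn last at 0.0789 RPKM. At P7 Grem1 was at 577.0 and Inhba at 141.2 RPKM, and Fst, at 45.6 RPKM, overlapped with Tgfb1 at 46.2 RPKM. Mstn had moved up to 3.78 RPKM, overlapping with Tgfb2 at 7.24 RPKM, while Bmp4 was last at 0.489 RPKM.

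**Figure D1:**
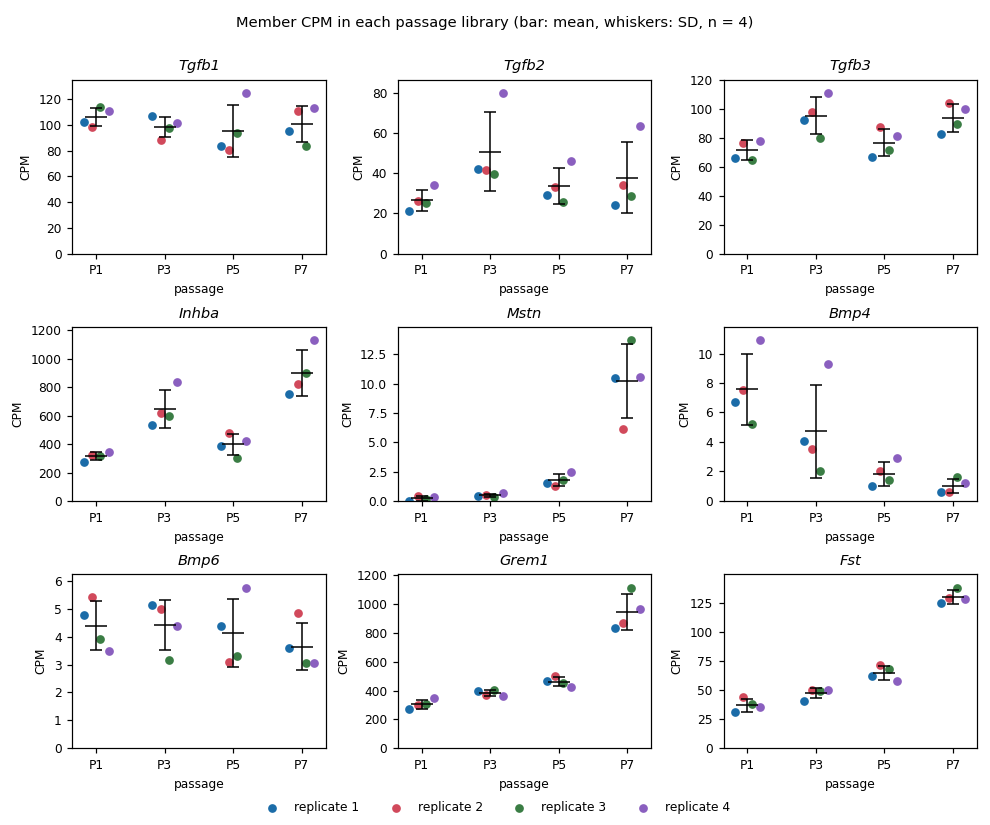
CPM of the 9 genes (vertical axes, linear, from 0) in each RNA-seq library of P1, P3, P5 and P7 (points, n = 4 per passage), with the mean and SD. Inhba, Mstn, Grem1 and Fst are above their P1 libraries in every P7 library, Bmp4 is below, and the libraries of Tgfb1 and Bmp6 overlap between all passages.

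From P1 to P7, the activin subunit gene Inhba, the myostatin gene Mstn, both antagonists and Tgfb3 rose, and Bmp4 fell. Tgfb1, Tgfb2 and Bmp6 did not pass the test. Of the 9 genes, 5 were higher and 1 was lower, where 30.5% of all 13442 tested genes were higher and 31.9% lower at P7. Mstn, among the 5, passed the filter on low counts only through P5 and P7. The median log2 fold change was 0.50 over the members and -0.01 over all genes.

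Inhba was at 277.0, 323.0, 315.5 and 347.0 CPM at P1 and at 751.0, 823.9, 897.5 and 1130.8 CPM at P7. Its lowest P7 library was above its highest P1 library, and the log2 fold change was 1.51 ± 0.15 (adjusted p = 5.1e-08). It did not move steadily. At P3 it was at 532.6, 619.1, 599.8 and 834.6 CPM, a rise of 1.03 ± 0.15 (adjusted p = 2.6e-05), and at P5 at 389.0, 476.1, 303.3 and 422.4 CPM, a fall of 0.70 ± 0.15 from P3 (adjusted p = 0.002). The rise from P5 to P7 was 1.18 ± 0.15 (adjusted p = 1.9e-05). The gene thus peaked at P3 and again at P7, with libraries that did not overlap at any of the 3 steps.

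Myostatin is best known as a muscle-derived inhibitor of muscle growth. Mstn had 0, 6, 2 and 5 counts in the P1 libraries and 6, 7, 5 and 9 counts at P3. It was then at 1.55, 1.24, 1.81 and 2.45 CPM at P5 and at 10.5, 6.10, 13.7 and 10.6 CPM at P7, where the libraries held 137, 79, 178 and 143 counts. The groups separated from P5 on, with a log2 fold change of 1.92 ± 0.41 from P3 to P5 (adjusted p = 0.0021), of 2.53 ± 0.30 from P5 to P7 (adjusted p = 8.6e-06) and of 5.51 ± 0.40 over the whole course (adjusted p = 6.8e-10). The step from P1 to P3, 1.06 ± 0.59, did not pass (adjusted p = 0.17). Mstn passed the filter on low counts only through its P5 and P7 libraries. Its p-values against P1 and P3 are therefore only a description. The summed muscle markers were lower in every P7 library than in every P1 library, and Myod1, Myog, Myf5 and Ckm, but not Pax7, were at 0 at P7. From P5 to P7, 1 of 7 tested muscle markers rose, the actin gene Acta1 (0.82 ± 0.23, adjusted p = 0.017), whose part was not tested.

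Tgfb3 was at 66.2, 76.4, 64.3 and 77.9 CPM at P1 and at 82.5, 103.9, 89.4 and 99.5 CPM at P7, a rise of 0.40 ± 0.11 (adjusted p = 0.0042). This rise lay between P1 and P3, where it was 0.42 ± 0.11 (adjusted p = 0.0071). Against P3 in place of P1, the P7 value was -0.02 (adjusted p = 0.91). Tgfb2 was at 21.2, 26.0, 25.0 and 33.9 CPM at P1 and at 41.9, 41.7, 39.5 and 79.9 CPM at P3. It rose by 0.93 ± 0.27 (adjusted p = 0.012), but without P3 replicate 4 the value was 0.64 (adjusted p = 0.066). Its P7 libraries, at 24.4, 33.9, 28.9 and 63.5 CPM, overlapped with P1 (log2 fold change 0.50 ± 0.27, adjusted p = 0.11). Without P7 replicate 1 that value was 0.67 and passed (adjusted p = 0.044), and against P3 it was -0.43 (adjusted p = 0.19). Tgfb1, the highest of the TGF-beta genes per length at each passage, lay between 80.2 and 124.7 CPM in all 16 libraries and did not pass the test at any step, with a P7 against P1 value of -0.08 ± 0.12 (adjusted p = 0.59).

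Bmp4 fell, and Bmp6 did not pass the test. Bmp4, a growth factor of many mesenchymal tissues, was at 6.71, 7.54, 5.20 and 10.9 CPM at P1 and at 0.611, 0.617, 1.61 and 1.19 CPM at P7. All P7 libraries were below all P1 libraries, and the gene fell by 2.90 ± 0.44 on the log2 scale (adjusted p = 1.1e-05). At P3 it was at 4.07, 3.50, 2.06 and 9.29 CPM, and the highest of these overlapped with P1. The fall from P3 to P5, 1.35 ± 0.41 (adjusted p = 0.018), became -0.79 (adjusted p = 0.12) without P3 replicate 4, and it also missed the threshold without P5 replicate 1 (adjusted p = 0.052) or P5 replicate 3 (adjusted p = 0.056). The value from P1 to P3, -0.69 ± 0.36 (adjusted p = 0.15), was -1.24 (adjusted p = 0.0088) without P3 replicate 4. Bmp6 lay between 3.04 and 5.76 CPM in the 16 libraries, with -0.27 ± 0.23 from P1 to P7 (adjusted p = 0.32).

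The antagonists rose at each step. Gremlin 1, from Grem1, binds and blocks BMPs. It was at 270.8, 297.1, 305.2 and 347.1 CPM at P1, at 400.2, 368.8, 404.1 and 362.7 CPM at P3, at 464.6, 503.4, 452.8 and 425.8 CPM at P5, and at 835.2, 867.0, 1115.9 and 964.6 CPM at P7. No 2 neighbouring passages overlapped, and the rise over the whole course was 1.63 ± 0.10 (adjusted p = 4.8e-11). Follistatin, from Fst, binds activins and myostatin. It was at 31.0, 44.2, 38.3 and 35.2 CPM at P1 and at 125.1, 129.5, 138.4 and 128.4 CPM at P7, a rise of 1.81 ± 0.10 (adjusted p = 3e-11). The last step, from P5 to P7, was 1.03 ± 0.10 for Grem1 (adjusted p = 1.4e-06) and 1.01 ± 0.10 for Fst (adjusted p = 2.1e-06). The first step was 0.33 ± 0.10 for Grem1 and 0.35 ± 0.10 for Fst, and without P1 replicate 1 both missed the threshold (adjusted p = 0.055 and 0.066). In the middle step Fst rose by 0.45 ± 0.10 (adjusted p = 0.0033). Grem1 rose by 0.27 ± 0.10 (adjusted p = 0.045), and lost that call without any 1 of the P3 libraries and without P5 replicate 1, 2 or 3, with adjusted p between 0.053 and 0.11.

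Counted by step, 5 members were higher and 0 lower at P3 against P1, with 16% of all genes higher and 17.5% lower. Without P1 replicate 1 the count was 3. At P5 against P3, 3 were higher (Mstn, Fst and Grem1) and 3 lower (Bmp4, Inhba and Tgfb3), with 13.4% and 15.3% of all genes. Mstn, among the 3 higher, passed the filter on low counts only through P5 and P7. The count at P5 against P3 was the least firm of the passages: it was 3 in all without P3 replicate 4, P5 replicate 1 or P5 replicate 3. The fall of Tgfb3 in it, 0.31 ± 0.11 (adjusted p = 0.041), was lost without P3 replicate 1, 2 or 4 and without P5 replicate 1, 3 or 4 (adjusted p between 0.053 and 0.16). At P7 against P5, 4 were higher and 0 lower, with 7.67% and 9.10% of all genes. Tgfb3 joined the higher genes there without P5 replicate 2 or without P7 replicate 1 (adjusted p = 0.045 in each).

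Genes with the most similar course over the 4 passage means were searched among 9583 genes for the 5 members whose means spanned more than 1 on the log2 scale. The measure was the root mean square difference of centred log2 CPM. Closest to Inhba were Ankrd1 (0.13) and Rgs16 (0.16), and to Mstn Cd53 (0.23) and Prl2c2 (0.24). The course of Bmp4 was closest to that of Cdc7 (0.037), which encodes a kinase of DNA replication, and of Cdc45 (0.075), which encodes a part of the replicative helicase. Thsd7a (0.07) and Cacna1g (0.09) were closest to Grem1, and Mfsd3 (0.054) and Ctsf (0.082) to Fst. Each likeness rests on 4 points.

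**Figure D2:**
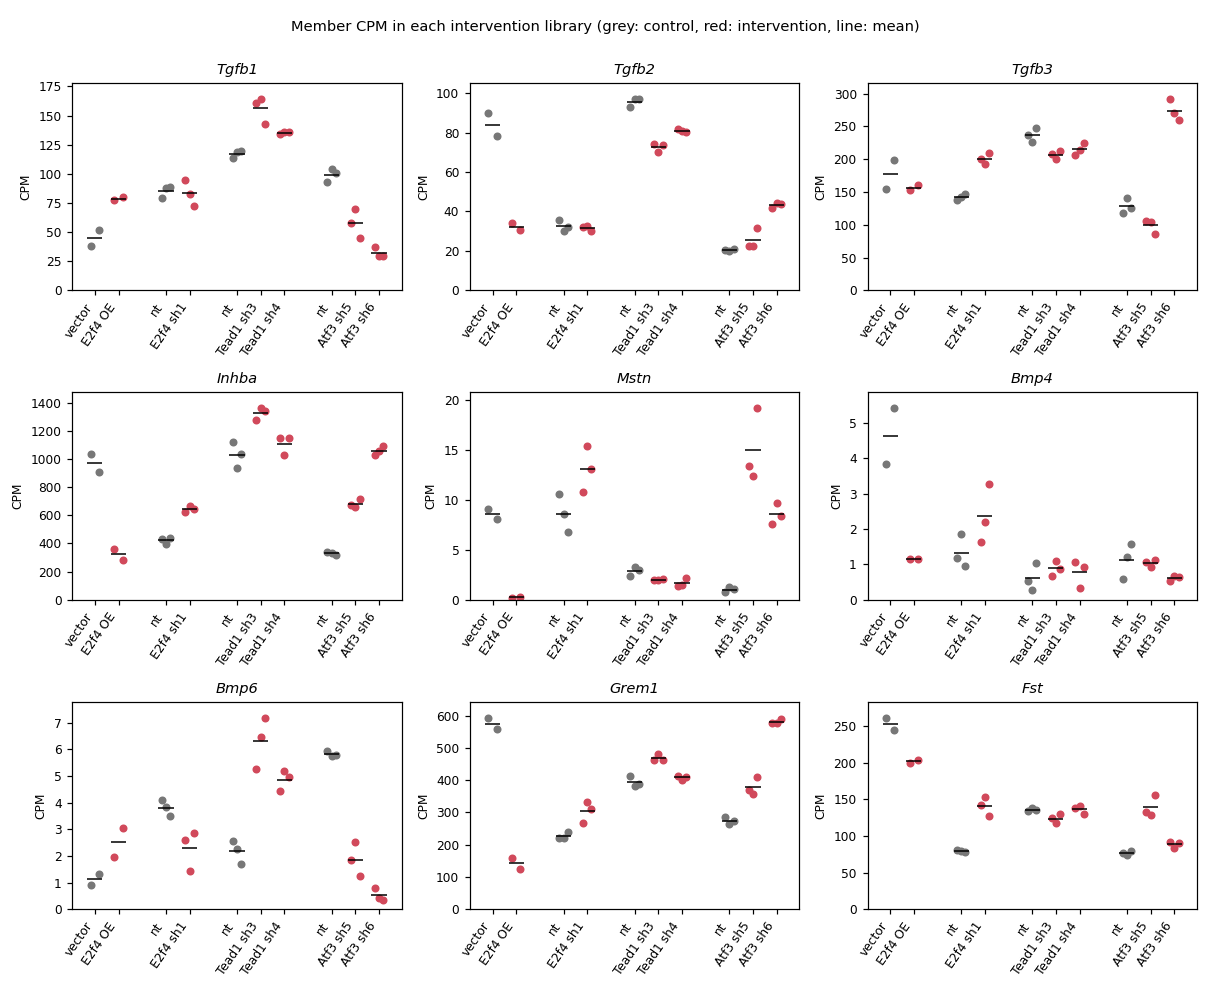
CPM of the 9 genes (vertical axes, linear, from 0) in each library of the 4 intervention experiments (points, n = 2 or 3 per group), with a line at the mean. Mstn, Inhba and Grem1 are lower with E2f4 overexpression than with its vector, Bmp6 is higher with both Tead1 hairpins, and Bmp6 and Tgfb1 are lower with both Atf3 hairpins.

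E2f4 is a member of the E2F family, which controls cell cycle genes. With E2f4 overexpression, 6 members fell (Mstn, Grem1, Bmp4, Inhba, Tgfb2 and Fst) and 2 rose (Bmp6 and Tgfb1), with 28.9% of all 13199 genes higher and 28.2% lower. The median log2 fold change was -1.38 over the members and 0.01 over all genes. Mstn was at 0.218 and 0.287 CPM (6 counts in each library) against 9.12 and 8.13 CPM in the vector control, and it fell by 5.09 ± 0.31 (adjusted p = 2.7e-06). It passed the filter on low counts only through the control, which held 209 and 141 counts. The p-value of Mstn is therefore only a description, and so is its place among the 6. Grem1 was at 159.4 and 124.1 CPM against 593.3 and 557.7 CPM, and fell by 2.02 ± 0.13 (adjusted p = 3.3e-06). Inhba was at 362.5 and 285.7 CPM against 1033.6 and 911.0 CPM, and fell by 1.58 ± 0.13 (adjusted p = 1e-05). None of these groups overlapped.

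Tgfb2 was at 34.0 and 30.6 CPM with E2f4 and at 90.0 and 78.1 CPM with the vector, and it fell by 1.38 ± 0.12 (adjusted p = 1.7e-05). Bmp4 was at 1.16 and 1.15 CPM against 3.84 and 5.42 CPM (a fall of 1.98 ± 0.29, adjusted p = 2.3e-04). Tgfb1 was at 77.2 and 79.7 CPM against 37.6 and 52.1 CPM, and it rose by 0.81 ± 0.15 (adjusted p = 9.4e-04). Bmp6 was at 1.96 and 3.06 CPM against 0.917 and 1.33 CPM. Its rise of 1.17 ± 0.36 (adjusted p = 0.017) rests on few counts: the adjusted p was 0.065 by DESeq2, 0.18 without E2f4_OE replicate 2 (value 0.83) and 0.058 without E2f4_OE_control replicate 1 (value 0.90). Fst fell by 0.33 ± 0.10 (adjusted p = 0.017), and this call was lost without either E2f4_OE library (adjusted p = 0.15 and 0.13). Tgfb3 did not pass (-0.17 ± 0.13, adjusted p = 0.26), but without E2f4_OE_control replicate 1 it was -0.35 (adjusted p = 0.0046).

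With 2 libraries a group, E2f4_OE and its control differed in more than E2f4. Xist, from the inactive X chromosome, was at 559.5 to 686.4 CPM in E2f4_OE and 1155.6 to 1399.5 CPM in the control. The Y-linked gene Ddx3y was at 7.36 to 9.96 and 36.5 to 36.8 CPM. Both genes were chosen after their values were seen, and their part in the members' values was not tested. Of the 10 muscle markers, Acta1 fell by 1.71 ± 0.12 with E2f4 (adjusted p = 6.0e-06), and Myod1, Myog, Myf5, Pax7, Ckm and Myh3 were at 0 in both groups. Txndc5, whose exons overlap those of Bmp6 by 49 bases on the opposite strand, rose by 0.44 ± 0.10 (adjusted p = 0.004), and since the counting ignored strand, reads of the overlap cannot be assigned. Bmp4 shares 84 exonic bases with Gm15217, which did not exceed 0.274 CPM in any library, and Fst shares 51 with Gm41074, not used here.

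With E2f4 knocked down by sh1, 5 members rose and 0 fell, with 10% of all 12310 genes higher and 7.79% lower. The median log2 fold change was 0.50 over the members and -0.01 over all genes. Fst was at 142.5, 153.2 and 127.8 CPM against 80.6, 79.3 and 78.1 CPM, and rose by 0.83 ± 0.08 (adjusted p = 6.2e-06). Inhba was at 627.4, 666.4 and 644.1 CPM against 428.6, 395.9 and 441.9 CPM (0.61 ± 0.06, adjusted p = 1.3e-05). Tgfb3 was at 200.5, 192.9 and 209.9 CPM against 137.3, 142.5 and 146.4 CPM (0.50 ± 0.06, adjusted p = 9.9e-05). Grem1 was at 265.8, 333.7 and 311.1 CPM against 221.1, 220.6 and 238.0 CPM (0.42 ± 0.08, adjusted p = 0.0019). In each of these the knockdown libraries lay above the control libraries.

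Mstn was at 10.8, 15.4 and 13.1 CPM with sh1 and at 10.6, 8.56 and 6.77 CPM in the control, barely apart. Its rise of 0.60 ± 0.19 (adjusted p = 0.039) did not pass by DESeq2 (adjusted p = 0.077) or without E2f4_sh1 replicate 2, E2f4_nt replicate 2 or E2f4_nt replicate 3 (values 0.46 to 0.60, adjusted p between 0.11 and 0.16). Bmp6 was at 2.58, 1.42 and 2.84 CPM against 4.08, 3.84 and 3.48 CPM, without overlap, but its -0.73 ± 0.30 did not pass (adjusted p = 0.11). Tgfb1 (-0.03 ± 0.09), Tgfb2 (-0.05 ± 0.10) and Bmp4 (0.81 ± 0.39, adjusted p = 0.17) also did not pass. Acta1 rose as well (0.83 ± 0.08, adjusted p = 1.3e-05), while Myod1, Myog and Myf5 were at 0 in both groups. Fibroblast markers were lower in sum with sh1, at 23188.6 to 25636.2 CPM against 30395.9 to 31355.3 CPM. Of the 8 markers, 2 were higher and 4 lower past the test, and their part was not tested.

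TEAD1 is the DNA-binding partner of the Hippo pathway factors YAP and TAZ. The largest change among the members with its knockdown was in Bmp6, at 5.24, 6.45 and 7.18 CPM with sh3, at 4.43, 5.17 and 4.96 CPM with sh4, and at 2.54, 2.27 and 1.71 CPM in the control. Both hairpin groups lay above the control, with log2 fold changes of 1.54 ± 0.19 (adjusted p = 1.2e-07) and 1.16 ± 0.20 (adjusted p = 2.8e-05). The overlapping gene Txndc5 changed by 0.06 ± 0.04 and 0.12 ± 0.04. The 2 hairpins share their control, so their values are not independent.

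With sh3, 4 members were higher and 3 lower, where 17.6% and 17.7% of all 13012 genes were higher and lower. With sh4, 2 were higher and 3 lower, with 14.4% and 14.7% of all genes. Without Tead1_sh4 replicate 1 the count with sh4 was 3. Tgfb1 was at 161.1, 164.4 and 142.9 CPM with sh3, at 134.4, 136.0 and 136.0 CPM with sh4 and at 113.3, 118.9 and 119.8 CPM in the control. It rose with both, by 0.41 ± 0.05 (adjusted p = 4.7e-08) and by 0.21 ± 0.05 (adjusted p = 0.0015). Tgfb2 was at 74.0, 70.0 and 73.6 CPM with sh3, at 81.6, 80.6 and 80.3 CPM with sh4 and at 93.2, 97.1 and 96.8 CPM in the control. It fell by 0.40 ± 0.05 (adjusted p = 6.4e-08) and by 0.24 ± 0.05 (adjusted p = 1.8e-04).

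Inhba rose by 0.36 ± 0.05 with Tead1 sh3 (adjusted p = 3.8e-07), and its value with sh4 was 0.11 ± 0.05 (adjusted p = 0.095), which passed without Tead1_sh4 replicate 2 (0.16) or without Tead1_nt replicate 1 (0.17). Grem1 rose by 0.24 ± 0.04 with sh3 (adjusted p = 7.7e-06), against 0.05 ± 0.04 with sh4 (adjusted p = 0.38). Tgfb3 fell by 0.19 ± 0.04 with sh3 (adjusted p = 7.1e-04) and by 0.14 ± 0.04 with sh4 (adjusted p = 0.015), the latter not without Tead1_sh4 replicate 1 or 2 or without Tead1_nt replicate 3 (adjusted p between 0.055 and 0.13). Mstn was at 1.34 to 2.16 CPM with sh4 and at 2.43 to 3.29 CPM in the control. It fell by 0.81 ± 0.25 with sh4 (adjusted p = 0.014), a call lost without Tead1_sh4 replicate 1 or 2 or without Tead1_nt replicate 2 (adjusted p between 0.06 and 0.078), and did not pass with sh3 (-0.53 ± 0.24, adjusted p = 0.096). Fst fell by 0.13 ± 0.05 with sh3 (adjusted p = 0.028), which was lost without Tead1_sh3 replicate 1 or 2 or Tead1_nt replicate 2 or 3 (adjusted p between 0.058 and 0.17). Bmp4 did not exceed 1.1 CPM in any library of this experiment.

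Tested directly, sh4 against sh3 of Tead1 had 1 member higher and 3 lower, with 3.34% and 4.03% of all genes. Inhba (-0.25 ± 0.05, adjusted p = 7.6e-04), Grem1 (-0.20 ± 0.04, adjusted p = 0.0013) and Tgfb1 (-0.20 ± 0.05, adjusted p = 0.0064) were lower with sh4. Tgfb2 was higher by 0.16 ± 0.05 (adjusted p = 0.043). Without Tead1_sh3 replicate 2 the count was 2, as Tgfb1 (adjusted p = 0.063) and Tgfb2 (adjusted p = 0.18) missed the threshold, and the call of Tgfb2 was lost without any 1 of the 6 libraries. Fst, at 0.14 ± 0.05 (adjusted p = 0.063), passed without Tead1_sh3 replicate 3 or Tead1_sh4 replicate 3 (0.17 in each). Tead1 itself was higher with sh4 than with sh3 by 0.18 ± 0.04 (adjusted p = 0.0063).

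**Figure D3:**
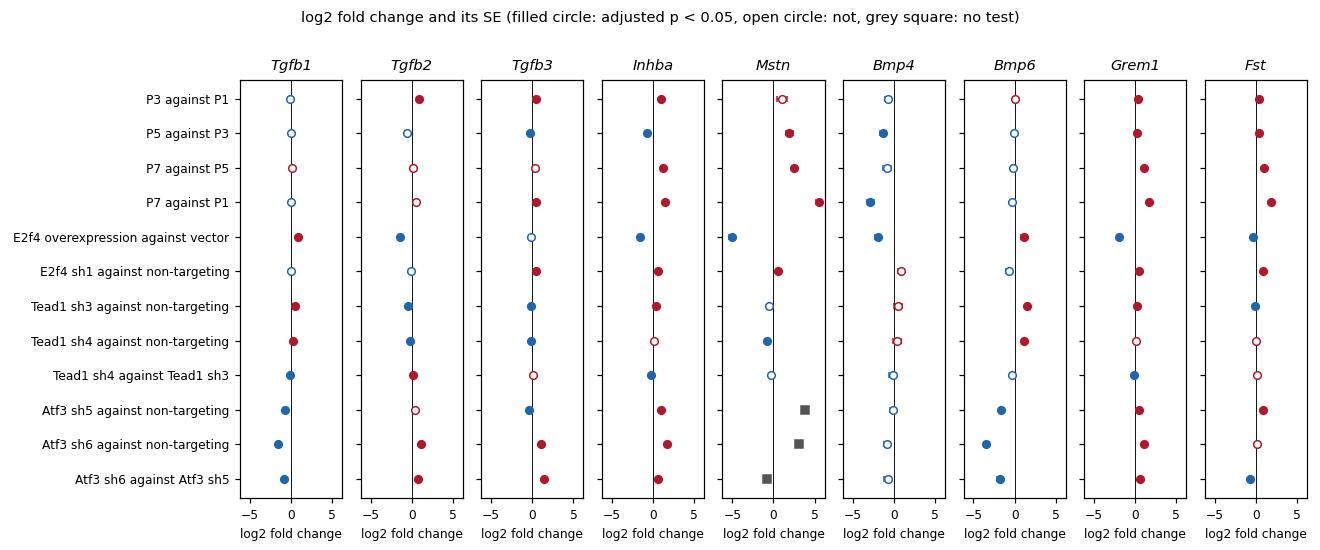
Log2 fold change with its standard error (horizontal axis) of the 9 genes in each comparison. Filled points passed the test at an adjusted p under 0.05, open points did not, and grey squares are Mstn in the Atf3 comparisons, given without a test. Mstn has the largest values in both directions, 5.51 from P1 to P7 and -5.09 with E2f4 overexpression. In both it passed the filter on low counts only through libraries where it was high, so its test there is a description.

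ATF3 is a stress-induced transcription factor of the same leucine zipper superfamily as the AP-1 factors. Mstn was named for its rise with an Atf3 hairpin when the genes were chosen, so its values here are a description. It was at 13.4, 12.4 and 19.2 CPM with sh5, at 7.61, 9.71 and 8.37 CPM in the libraries labelled Atf3_sh6, and at 0.763, 1.26 and 1.06 CPM in the control, with log2 fold changes of 3.87 ± 0.24 and 3.07 ± 0.25. Mstn was thus higher in both hairpin groups, more so with sh5. The sum of the muscle markers differed from the control in opposite directions, at 14.6 to 18.1 CPM with sh5 and 197.2 to 217.3 CPM with sh6, against 38.1 to 39.5 CPM. Myf5, Myog and Pax7 were at 0 with both hairpins. Ckm and Myod1 were at 0 with sh5 and in the control, but not with sh6. Of 4 tested muscle markers, 2 were higher and 2 lower with sh6, and 0 higher and 1 lower with sh5. Most of the sum was actin Acta1, at 206.0 ± 10.1 CPM (SD, n = 3) with sh6.

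Of the other 8 members, 3 were higher and 3 lower with sh5, with 17.7% and 18.1% of all 13345 genes. With sh6, 4 were higher and 2 lower, with 23.8% and 26.0% of all genes. Their median log2 fold changes were 0.12 and 0.64, against -0.03 and -0.02 over all genes. Inhba rose with both hairpins, at 676.9, 658.1 and 715.6 CPM with sh5 and 1025.8, 1058.8 and 1093.3 CPM with sh6 against 340.5, 335.1 and 321.2 CPM. Its log2 fold changes were 1.04 ± 0.06 (adjusted p = 9.8e-06) and 1.67 ± 0.06 (adjusted p = 5.8e-08). Grem1 rose too, from 286.8, 263.6 and 273.4 CPM in the control to 370.4, 358.3 and 408.6 CPM with sh5 (0.46 ± 0.07, adjusted p = 0.0013) and 577.0, 577.2 and 588.1 CPM with sh6 (1.08 ± 0.07, adjusted p = 1.1e-06). The 3 groups of each gene did not overlap.

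Tgfb1 and Bmp6 fell with both Atf3 hairpins. Tgfb1 was at 58.1, 69.7 and 44.9 CPM with sh5, at 36.8, 29.7 and 29.6 CPM with sh6 and at 93.0, 104.1 and 100.9 CPM in the control. It fell by 0.79 ± 0.15 (adjusted p = 0.0036) and by 1.63 ± 0.15 (adjusted p = 1.2e-05). Bmp6 was at 1.84, 2.51 and 1.24 CPM with sh5, at 0.814, 0.420 and 0.349 CPM with sh6 (14, 7 and 6 counts) and at 5.94, 5.76 and 5.77 CPM in the control. It fell by 1.63 ± 0.28 (adjusted p = 0.0023) and by 3.45 ± 0.33 (adjusted p = 1.5e-05), while Txndc5 changed by -0.17 ± 0.13 and 0.09 ± 0.13.

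The hairpins of Atf3 moved Tgfb3 in opposite directions. It was at 106.2, 104.4 and 86.3 CPM with sh5, at 292.2, 269.9 and 260.6 CPM with sh6 and at 118.7, 141.6 and 124.9 CPM in the control. It fell with sh5 by 0.37 ± 0.10 (adjusted p = 0.017), a call lost without Atf3_nt replicate 2 (adjusted p = 0.077), and rose with sh6 by 1.1 ± 0.10 (adjusted p = 1.1e-05). Tgfb2 rose with sh6 by 1.09 ± 0.13 (adjusted p = 6.2e-05), and with sh5 it was 0.34 ± 0.13 (adjusted p = 0.064), which passed without Atf3_sh5 replicate 1 (0.42) or replicate 2 (0.43). Fst was at 132.1, 129.2 and 155.9 CPM with sh5, 91.9, 83.1 and 90.5 CPM with sh6 and 77.3, 74.3 and 79.9 CPM in the control. It rose with sh5 by 0.85 ± 0.09 (adjusted p = 2.2e-04) and did not pass with sh6 (0.20 ± 0.09, adjusted p = 0.086). Bmp4 did not pass with either (-0.10 ± 0.36 and -0.87 ± 0.39), although the latter was -1.19 (adjusted p = 0.021) without Atf3_nt replicate 1.

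Tested directly, sh6 against sh5 of Atf3 had 4 of the 8 members higher and 3 lower, with 25.9% and 26.6% of all genes. Tgfb3 (1.47 ± 0.10, adjusted p = 1.9e-06), Tgfb2 (0.75 ± 0.13, adjusted p = 7.5e-04), Inhba (0.63 ± 0.06, adjusted p = 2.1e-05) and Grem1 (0.62 ± 0.07, adjusted p = 4.8e-05) were higher with sh6. Bmp6 (-1.81 ± 0.36, adjusted p = 0.0019), Tgfb1 (-0.85 ± 0.15, adjusted p = 9.6e-04) and Fst (-0.65 ± 0.09, adjusted p = 1.6e-04) were lower. Fibroblast markers summed to 13392.5 to 14381.7 CPM in the libraries labelled Atf3_sh6, 21212.9 to 33781.4 CPM with sh5 and 34983.8 to 36806.3 CPM in the control. Of the 8 markers, 0 rose and 6 fell with sh6, but 3 rose and 0 fell with sh5 past the test. Atf3 itself did not differ between the hairpins by the test (0.35 ± 0.42, adjusted p = 0.50). The part of these differences in the members' values was not tested.

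The rest of the pathway was described by lists of genes, chosen for their role, with earlier results of these data known. Smad6, Smad7, Smad9, Skil, Bambi and Ltbp2 stand in more than 1 list. Shares of all genes past each test are those given above. At P7 against P1, 8 of 11 TGF-beta target genes were higher and 2 lower, led by fibronectin Fn1 (2.35 ± 0.15), Ccn2 (1.82 ± 0.21) and Tagln (1.79 ± 0.15), and the list's median was 0.63. By step, 8 were higher and 1 lower at P3 against P1 (median 0.79), 1 higher and 3 lower at P5 against P3 (median -0.29), and 4 higher and 1 lower at P7 against P5 (median 0.23). The first of these steps is also the one at which the markers of macrophages and muscle fell, and their part was not tested. Of 9 BMP target genes, 4 were higher and 3 lower, with a median of -0.04: Id2 fell by 1.5 ± 0.22, Smad9 fell by 1.30 ± 0.25 and Id4 rose by 1.38 ± 0.14. Of 9 other antagonists, 5 were higher and 2 lower. Chrd, for the BMP antagonist chordin, rose by 2.15 ± 0.31 from low levels, 0.991 ± 0.280 CPM to 4.40 ± 1.55 CPM (SD, n = 4). Of 12 receptors, 5 were higher, such as Bmpr1b (0.75 ± 0.18), and 2 lower, such as Tgfbr1, which fell by 0.72 ± 0.12. Among 12 genes of Smads and their regulators, 3 were higher, led by Smad3 (0.94 ± 0.11), and 4 lower. Of 11 genes for the latency and activation of TGF-beta, 6 were higher and 3 lower, with Tll1 up by 1.76 ± 0.18 and Ltbp2 down (-1.54 ± 0.12). Of 13 other ligands that passed the filter, 3 were higher and 6 lower. By step, 0 were higher and 9 lower at P3 against P1, where the markers of macrophages and muscle also fell, 4 higher and 0 lower at P5 against P3, and 3 higher and 0 lower at P7 against P5.

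**Figure D4:**
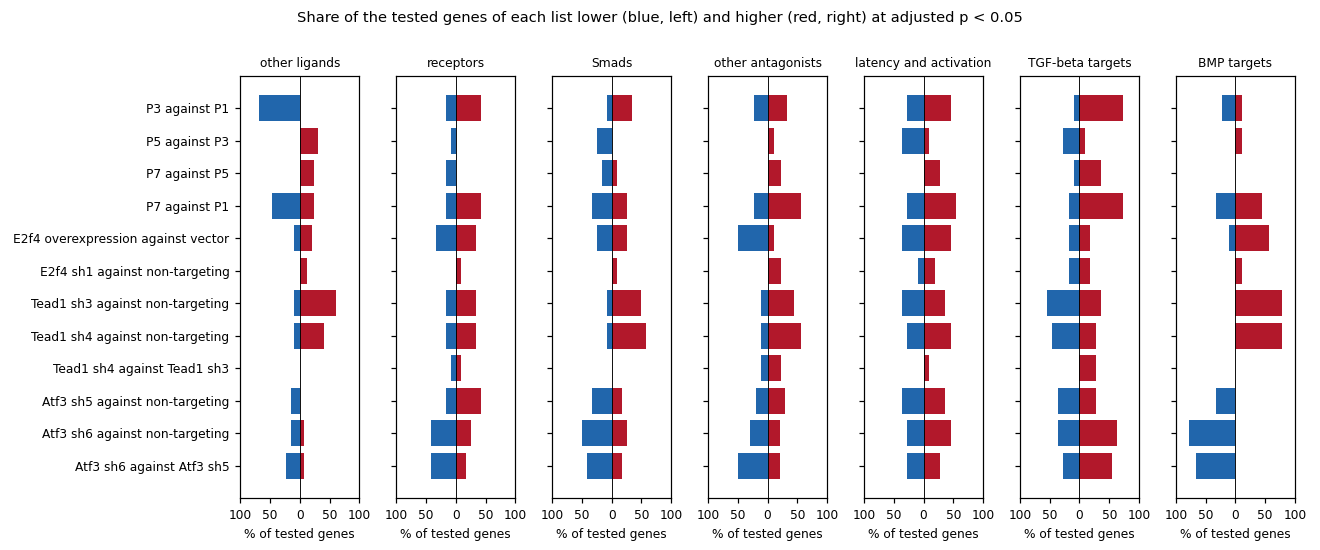
Percent of the tested genes of each pathway list (horizontal axes) that were higher (red, right) or lower (blue, left) past the test in each comparison. BMP targets are higher with both Tead1 hairpins (7 of 9 each) and lower in the libraries labelled Atf3_sh6 (7 of 9).

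In the interventions, the BMP targets moved mostly 1 way within a comparison. With Tead1 knockdown, 7 of 9 rose and 0 fell with each hairpin, with medians of 0.50 and 0.42. Examples were Id4 (0.73 ± 0.07 and 0.72 ± 0.07) and Smad6 (0.66 ± 0.06 and 0.70 ± 0.06), an inhibitory Smad. With Atf3 hairpins 0 rose, and 3 fell with sh5 and 7 with sh6, with medians of -0.44 and -1.26. Atoh8 fell by 1.15 ± 0.16 and 2.06 ± 0.16, and Hey1 by 1.09 ± 0.21 and 1.74 ± 0.22. With E2f4 overexpression 5 rose and 1 fell, including Bambi (1.24 ± 0.15), a decoy receptor, and Id1 (0.88 ± 0.12). With E2f4 sh1, 1 rose (Id4, 0.84 ± 0.12) and 0 fell.

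TGF-beta targets were split in the interventions. With sh3 of Tead1, 4 rose and 6 fell of 11, and with sh4 3 rose and 5 fell. Tgfbi (-0.75 ± 0.09 and -0.78 ± 0.09), periostin Postn (-0.57 ± 0.04 and -0.59 ± 0.04) and smooth muscle actin Acta2 (-0.48 ± 0.03 and -0.29 ± 0.03) were lower with both. With Atf3 sh5, 3 rose and 4 fell. In the libraries labelled Atf3_sh6, 7 rose and 4 fell: Ccn2 rose by 1.73 ± 0.08, while Postn fell by 1.28 ± 0.09. Noggin, a BMP antagonist, was lower there as well (Nog, 0.822 ± 0.117 CPM against 12.6 ± 2.87 CPM in the control, SD, n = 3), and fell by 3.93 ± 0.32 (adjusted p = 4.7e-06). E2f4 overexpression and sh1 each had 2 targets higher and 2 lower.

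Open chromatin at the start sites was compared by the strongest peak within 1000 bases, given as its percentile by -log10 p among the peaks of the same sample (0 where no peak was called). The samples held 142384 to 231558 peaks, with 168982 to 186562 in P1 and 200376 to 231558 in P7, so a percentile refers to a longer list at P7, and its part in the differences was not tested. Of the 9 genes, 7 had such a peak in all 13 samples. The highest was at Tgfb3, with a mean percentile of 90.3 ± 1.60 (SD, n = 4) at P1 and 90.0 ± 2.43 (SD, n = 3) at P7. Bmp6 followed, at 79.6 ± 4.79 and 81.0 ± 4.60. Bmp4 had a peak in 1 of the 13 samples, a P1 sample, and Mstn in 4 of 13 (1 of P1, 2 of P5 and 1 of P7), none above a percentile of 13.0. Where Mstn counts rose most, at P7, its promoter therefore had a called peak in 1 of 3 samples.

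At Grem1, whose RNA rose, the promoter percentile was 52.0, 55.7, 65.9 and 67.3 in the P1 samples and 41.7, 31.2 and 40.5 in the P7 samples. The groups did not overlap in percentile, with a difference of -22.4 (exact permutation test over samples, two-sided p = 0.0286, adjusted p = 0.129 over the 9 genes). By fold enrichment they overlapped, at 2.97 to 4.01 in P1 and 2.72 to 3.07 in P7. At Tgfb1, whose RNA did not pass the test, it was 71.8, 69.9, 68.8 and 73.6 at P1 and 54.6, 47.4 and 60 at P7, a difference of -17.0 (exact p = 0.0286, adjusted p = 0.129), and the fold enrichment again overlapped, at 3.52 to 4.17 and 3.22 to 3.67. At Inhba it was 76.8, 75.5, 64.8 and 75.4 at P1 and 61.3, 39.1 and 66.4 at P7, with overlap (-17.5, exact p = 0.0857, adjusted p = 0.257). For Fst (-6.06), Tgfb2 (-2.04), Tgfb3 (-0.383) and Bmp6 (1.31) the exact p was 0.457 or higher. None of the 9 differences passed after adjustment, and 2 had an unadjusted p under 0.05. The smallest p that 4 against 3 samples can give is 0.0286, so a single gene could not get below 0.257 after adjustment.

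**Figure D5:**
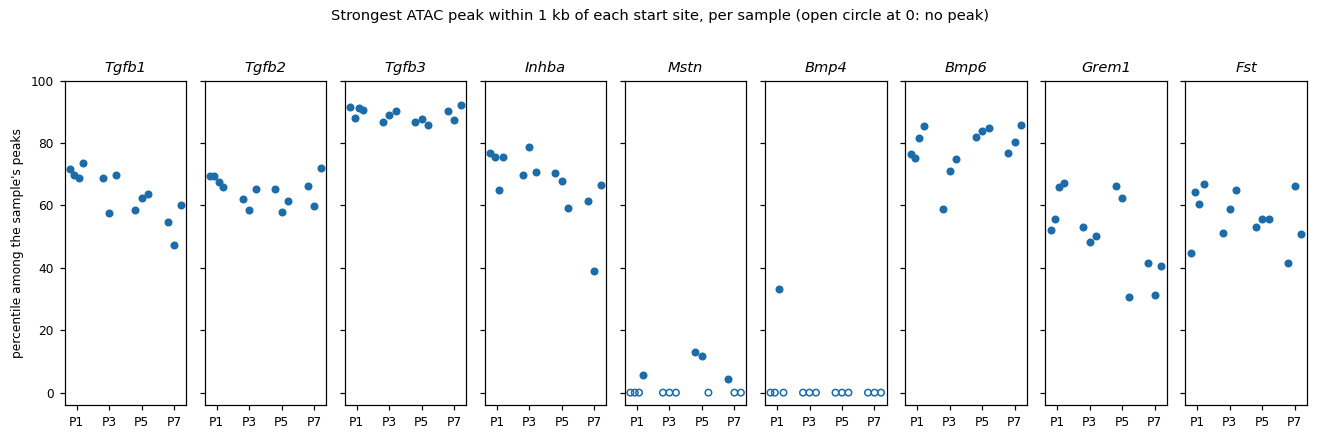
Percentile of the strongest ATAC-seq peak within 1000 bases of each start site (vertical axes, 0 where no peak was called) in each sample of P1 (n = 4), P3, P5 and P7 (n = 3 each). The percentiles of Grem1 and Tgfb1 are lower in all P7 samples than in all P1 samples, within peak lists that are longer at P7, and Tgfb3 lies between 85.7 and 92.2 in all 13 samples.

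Peaks in over 60% of the replicates of P7 and in no replicate of P1 (gained peaks) were found within 20000 bases of the start sites of 3 of the 9 genes, 1 each, where 51.6% of 13425 tested genes had at least 1. They lay in an intron of Tgfb2 (chr1:186693942-186694196), 11935 bases before the start of Bmp6 (chr13:38333608-38333914) and 790 bases before that of Fst (chr13:114459543-114459865), in build mm10. Their percentiles lay between 2.11 and 35.8 and their fold enrichment between 1.87 and 3.92. The 201 bases around the summit of the Tgfb2 peak, the strongest of the 3 by percentile, at chr1:186693954-186694154 on the + strand, are shown with the motif match in capitals.
Tgfb2 peak: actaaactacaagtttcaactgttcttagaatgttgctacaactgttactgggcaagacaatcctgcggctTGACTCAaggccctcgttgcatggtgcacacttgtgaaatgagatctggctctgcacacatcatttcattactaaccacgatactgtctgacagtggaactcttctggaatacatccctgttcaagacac
They held TGACTCA, a match to TGANTCA, which was found in 26.5% of 33287 gained peaks and in 31.5% of the 204266 consensus peaks of P7. With peaks of a -log10 q of at least 5, the gained peaks near Tgfb2 and Bmp6 were no longer found, that near Fst was, and Mstn had 1. Lost peaks were found near 0 of the 9 genes and near 11.5% of all genes.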

How the data were processed

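RNA-seq was available for 44 libraries and ATAC-seq for 13 samples. Bisulfite samples of the series were not analysed here. Per the submitters' processing notes and the study's methods, the authors used Trimmomatic 0.39 for trimming and HISAT2 2.2.1 for alignment (build mm10), and deposited raw read counts per gene from HTSeq 0.12.4, with strand ignored. For ATAC-seq, reads were aligned with Bowtie2 2.3.5.1 and peaks were called per sample with MACS2. The peak files deposited by the authors hold a signal value, which is the fold enrichment, a -log10 p-value and a -log10 q-value. Read counts are not among their columns, and so the depth of a peak is unknown.

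Samples were grouped by their labels. The labels do not say that replicates are separate cultures or animals, so p-values measure only the spread between these samples. The 5 entries per intervention table that name no gene held 7.5% to 16.8% of the reads and were left out. A separate edgeR fit (version 4.0.16, R 4.3.3) was made for every experiment (filterByExpr, TMM, quasi-likelihood test, Benjamini-Hochberg adjustment over all tested genes), after a test on simulated data. Calls used an adjusted p under 0.05, without the further fold threshold of the study. CPM are counts per 1000000 of the TMM-scaled library total, and RPKM divide them by RefSeq exonic length. Comparisons within an experiment share their controls or passages. Of 24984 genes, 24435 matched RefSeq by symbol and 435 by 1 older symbol.

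The members and gene lists were chosen with earlier results of these data known. The text names all members, the targeted genes, up to 3 genes past the test with the largest fold change per list and comparison, and the 2 genes most like a member over the passages. Mstn was named for its rise with an Atf3 hairpin, so no p is given for it there. Alternatives were DESeq2 1.42.0 and its size factors, no filter, at least 10 counts in every library, a fit of only the 2 groups, the replicate block, each library left out, and P3 in place of P1, the last chosen after seeing the data. For peaks they were a 500-base promoter window, fold enrichment in place of p, a -log10 q of at least 5 and a 50000-base window.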

Additional observations from a re-analysis of the deposited data

Results flagged for a closer look

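In 45 groups of 4 samples or more, 1 sample stood far from the rest of its group in 5 cases, by the size of its gap relative to the group's range, and chance gives about 1 in 20. At P3, replicate 4 of Tgfb2 was at 79.9 CPM, against 39.5 to 41.9 CPM in the others. At P3, replicate 1 of Fst was at 40.7 CPM, against 49.3 to 49.9 CPM. Among the P1 ATAC-seq samples, the Inhba promoter percentile was 64.8 in replicate 3, against 75.4 to 76.8. The Mstn promoter had a peak in 1 P1 sample, at a percentile of 5.56, and the Bmp4 promoter in 1 P1 sample, at 33.1, with no peak in the other P1 samples. For Mstn and Bmp4 those other samples were tied at 0. There the gap equals the range whenever 1 sample has a peak, and the rate of 1 in 20 does not apply.

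The hairpins of 1 target differed from each other in 11 tests. With Tead1, sh4 against sh3 gave log2 differences of -0.20 for Tgfb1, 0.16 for Tgfb2, -0.25 for Inhba and -0.20 for Grem1. With Atf3, sh6 against sh5 gave -0.85 for Tgfb1, 0.75 for Tgfb2, 1.47 for Tgfb3, 0.63 for Inhba, -1.81 for Bmp6, 0.62 for Grem1 and -0.65 for Fst. Tgfb3 passed the test in opposite directions against the shared control, lower with sh5 and higher with sh6.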

How the results depend on the processing

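Of 69 calls of a member in a comparison, refitted 838 times in all, 787 refits kept direction and call, 50 lost the call and 1 turned the direction, Tgfb3 at P7 against P1, which was -0.02 with P3 in place of P1. The losses fell on 16 calls. The cause was not tested. Leaving out 1 library at a time gave 3 to 5 members past the test for P3 against P1 (5 with all libraries), 3 to 5 for P5 against P3 (6), 3 to 6 for Tead1 sh4 (5) and 2 to 4 for Tead1 sh4 against sh3 (4). Near the members, 6 genes had a gained peak within 50000 bases, where 80.7% of all genes had one. With a -log10 q of at least 5 there were 2 with a gained peak, Fst and Mstn (48.8% of all genes), and 2 with a lost peak, Tgfb1 and Tgfb2 (9.21%).

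Bmp6 at P3 against P1 was 0.00 with DESeq2 and with its size factors, -0.02 with at least 10 counts in every library, and -0.10 to 0.14 with 1 library left out. With P3 in place of P1, Tgfb1 was 0.03 and Tgfb2 -0.43. With 1 library left out, Tgfb1 ranged from -0.20 to 0.03 at P5 against P3, from 0.00 to 0.23 at P7 against P5, from -0.14 to 0.02 at P7 against P1 and from -0.13 to 0.07 with E2f4 sh1. Bmp6 ranged from -0.29 to 0.02 at P5 against P3 and from -0.36 to 0.01 at P7 against P5. Tgfb2 ranged from -0.21 to 0.36 at P7 against P5 and from -0.09 to 0.02 with E2f4 sh1, and Tgfb3 from -0.35 to 0.01 with E2f4 overexpression. Bmp4 ranged from -0.01 to 0.95 with Tead1 sh4, from -0.50 to 0.17 for Tead1 sh4 against sh3 and from -0.42 to 0.23 with Atf3 sh5, and Fst from -0.01 to 0.04 with Tead1 sh4. The promoter percentile differences ranged from -5.05 to 1.03 for Tgfb2, from -1.51 to 0.902 for Tgfb3, from -1.39 to 1.41 for Mstn (-1.39 with a 500-base window) and from -1.13 to 3.43 for Bmp6 (-1.08 by fold enrichment).

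By the correlation of same-numbered libraries, replicate numbers were not taken to pair the samples: the lowest was -0.26 in the passages, 0.023 in the E2f4 knockdown, -0.045 with Tead1 and -0.16 with Atf3. In the passages the median was 0.094 over same-numbered pairs and -0.022 over the other pairs. In the E2f4 knockdown the highest of the other pairs was 0.020, below every same-numbered pair. With E2f4 overexpression the lowest was 0.14 over only 2 pairs. In groups of 2 libraries the deviations from the group mean mirror each other, so these pairs give a single value. With the replicate block, Bmp4 at P3 against P1 was -0.77 (edgeR, adjusted p = 0.028), Tgfb2 was -0.57 at P5 against P3 (adjusted p = 0.0022) and 0.44 at P7 against P1 (adjusted p = 0.0044), and Tgfb3 was 0.30 at P7 against P5 (adjusted p = 0.017), all then past the test, while Tgfb2 for Tead1 sh4 against sh3 no longer passed (0.16, adjusted p = 0.053). Libraries correlated best with their own number in 10 of 16 passage libraries, 4 of 4 of E2f4 overexpression (where only all or none could occur), 6 of 6 of the E2f4 knockdown, 5 of 9 of Tead1 and 2 of 9 of Atf3.

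Over all genes, the calls at P7 against P5 were 1187 in a fit of only the 2 groups, against 2254. Without 1 control library, those with E2f4 sh1 were 1131, 1314 and 1305 against 2192. Tead1 sh4 against sh3 had 575 without Tead1_sh4 replicate 1 and 623 without replicate 3, against 959. Atf3 sh5 had 2687 without Atf3_nt replicate 2 and 2874 without replicate 3, against 4785. The low counts of Mstn, Bmp4 and Bmp6 limit their precision, with standard errors of up to 0.59, 0.49 and 0.36.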

Other observations

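Among the passage libraries, replicate 4 was the highest of its group for Tgfb2 at 4 of 4 passages, for Inhba at 3 and for Bmp4 at 3. Replicate 4 was the highest at 1 of 4 passages for Grem1, Fst and Bmp6.

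Atf3, itself a target of the interventions, rose over the passages by 0.93 ± 0.24 on the log2 scale from P1 to P7 (edgeR, adjusted p = 0.0022). E2f4 was higher in the libraries labelled Atf3_sh6 than in their control (0.67 ± 0.10, adjusted p = 3.1e-04), and Atf3 was lower with both Tead1 hairpins (-0.68 ± 0.20, adjusted p = 0.0086, with sh3 and -0.64 ± 0.20, adjusted p = 0.015, with sh4).

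Xist, chosen after its values were seen, was at 199.5 to 269.0 CPM in the libraries labelled Atf3_sh6, at 407.4 to 463.7 CPM with Atf3 sh5 and at 301.0 to 326.9 CPM in their control. Ddx3y, chosen in the same way, was at 0 in all passage libraries. It was at 79.9 to 87.2 CPM in Atf3_nt, at 92.1 to 104.3 CPM with Atf3 sh5 and at 120.1 to 135.5 CPM with Atf3_sh6. In the E2f4 knockdown it was at 75.9 to 97.8 CPM with sh1 and 72.5 to 78.4 CPM in the control. In the Tead1 libraries it lay between 63.9 and 74.8 CPM. The part of these differences in the members' values was not tested.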
